A study of Mus musculus with 18 samples.

Results

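Blood vascular endothelial cells (BEC) of mouse embryos were compared between embryonic day 16.5 (E16.5) and E14.5. The members were the 3 BEC arrays of each age, 6 of the 18 arrays in the series, and were chosen by the cell type and age in the sample labels. The other 12 arrays held BEC at E18.5 and lymphatic endothelial cells (LEC) at each of the 3 ages, with 3 arrays in each group. According to the labels the 3 replicates of a group are biological, 1 from each of 3 independent litters, and both cell types of an age were taken from the same litters. No genotype, strain, treatment or embryonic organ is named beyond the word embryonic, and the separation of the cells is described only through a citation. Expression was read from total RNA on the Affymetrix Mouse Gene 1.0 ST array, whose probes lie along the exons of each gene, and the deposited values are log2 expression levels.

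BEC line arteries, capillaries and veins, and LEC line the lymphatic vessels that return fluid and immune cells to the blood. The lymphatic lineage arises in the embryo largely from veins, when cells switch on Prox1, a homeodomain factor that specifies and maintains lymphatic fate. GATA2, the factor named in the title of the series, acts in both vessel types, in lymphatic valves and in blood-forming cells. Blood vessels meanwhile acquire arterial, venous and capillary features, gain a coat of mural cells, and in many tissues take up the machinery that moves fatty acids from the blood into the tissue.

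The level of a gene is given on the log2 scale, on which a difference of 1 is a 2-fold change. Differences are E16.5 minus E14.5 with their standard error (SE), n = 3 arrays in each group, and "rose" and "fell" are used for genes with a limma adjusted p under 0.05 over the 19938 genes tested. In BEC 1945 genes (9.76%) passed, of which 1016 (5.1%) rose and 929 (4.66%) fell, and the median difference over all genes was -0.05. Most changes were modest: 97 genes rose and 40 fell by at least 1, together 0.687% of all genes. The arrays of the 2 ages did not overlap for 3414 genes higher at E16.5 (17.1%) and 4035 lower (20.2%). The split between rises and falls depended on the scaling, since 1607 genes rose and 563 fell after each array was shifted to a common median over all genes, a rise share of 74.1% against 52.2%. The count of called genes was 3318 without the E18.5 arrays and 4022 with array weights. It was 1155 without E14.5 replicate 1, 966 without E14.5 replicate 2, 1154 without E14.5 replicate 3 and 850 without E16.5 replicate 2 of BEC. Of the 172 genes named here that rose or fell in BEC, 111 passed with each of the 6 BEC arrays left out in turn. Arrays of 1 group correlated at 0.993 to 0.996 in these 2 groups. The spread of values was wider at E16.5, with an interquartile range of 3.54 to 3.64 per array against 3.40 to 3.48 at E14.5. Genes dim in both groups, below a mean level of 4.66 that 95% of olfactory and vomeronasal receptor genes do not reach, had a median difference of -0.11, and brighter genes -0.01. The part of the wider spread at E16.5 in the results was not tested. The counts in the gene lists below stand beside 5.1% of all genes that rose and 4.66% that fell in BEC. In LEC these shares were 8.07% and 5.72%.

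The labelled cell type was checked against its markers. The adhesion molecules Cdh5 (VE-cadherin) and Pecam1 had mean levels of 11.69 and 11.31 at E14.5 and 11.93 and 11.57 at E16.5. Flt1, a VEGF receptor of blood endothelium, averaged 9.67 and 10.15, against 5.48 and 5.79 in LEC. The 20 measured genes of a blood endothelial list had a mean level of 9.87 to 9.95 per BEC array at E14.5 and 10.29 to 10.41 at E16.5, and of 6.17 to 6.95 in the LEC arrays of these ages.

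**Figure D1:**
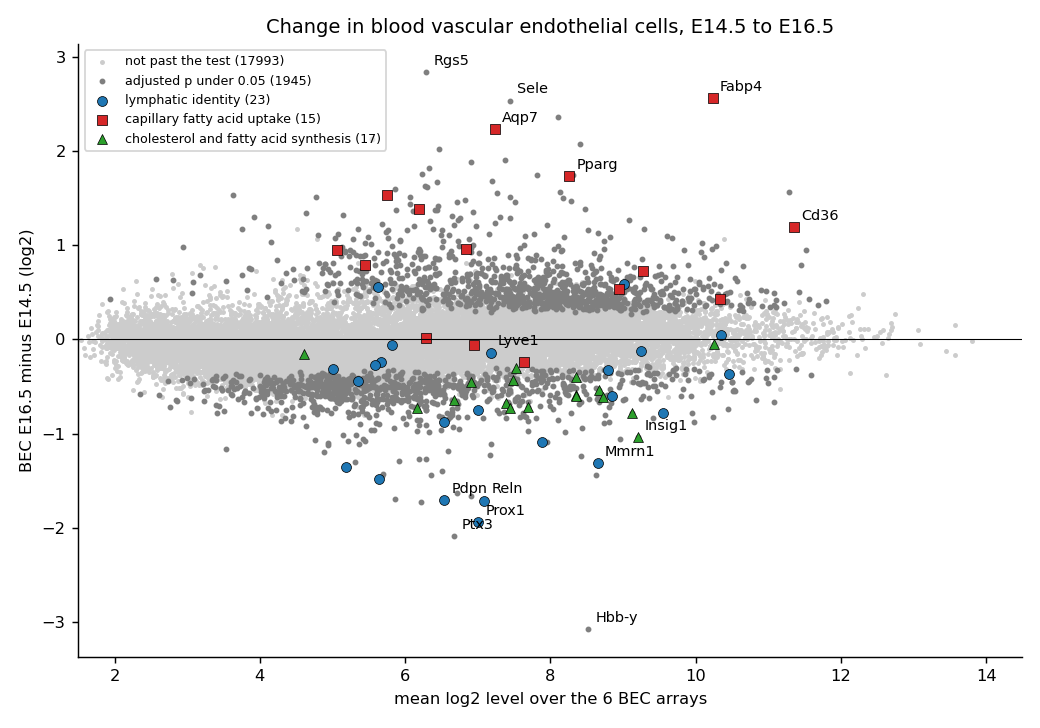
Each point is one of 19938 genes, with its mean log2 level over the 6 BEC arrays on the x axis and the difference E16.5 minus E14.5 (log2) on the y axis; dark grey marks the 1945 genes past the test and colours mark 3 gene lists. Lymphatic genes such as Prox1, Reln and Pdpn lie among the largest falls, and Fabp4 and Aqp7 of the fatty acid uptake list among the largest rises.

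Many transcripts of lymphatic identity fell in BEC over these days. Of 23 measured genes of the list, 12 fell and 2 rose, with a median difference of -0.44 against -0.05 over all genes, and 11 fell when any one of the 6 arrays was left out. In LEC the median of the same genes was 0.28, with 7 that rose and 1 that fell, where 8.07% of all genes rose and 5.72% fell. All 23 genes were above the dim level at E14.5 and 22 at E16.5. In bulk samples fewer cells that carry a transcript and less RNA per cell cannot be told apart.

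Prox1 stood at 8.10, 7.84 and 7.98 at E14.5 and 6.08, 6.04 and 5.98 at E16.5 in the BEC replicates. Every E16.5 array lay below every E14.5 array, and the distance between the ages was much wider than the spread within them. The fall was 1.94 ± 0.15 (adjusted p = 7.7e-07). In the LEC arrays Prox1 was at 10.52, 10.48 and 10.46 at E14.5 and 10.92, 10.99 and 11.15 at E16.5, a rise of 0.54 ± 0.15 (adjusted p = 0.024). Reln, a large secreted glycoprotein of lymphatic endothelium, stood at 8.14, 7.72 and 7.97 at E14.5 and 6.20, 6.32 and 6.18 at E16.5 in BEC. All E16.5 arrays were below all E14.5 arrays, and the fall was 1.71 ± 0.15 (adjusted p = 1.3e-06). Pdpn (podoplanin), the membrane mucin that binds a platelet receptor and keeps blood and lymph vessels apart, measured 7.65, 7.0 and 7.52 at E14.5 and 5.61, 5.69 and 5.77 at E16.5. E14.5 replicate 2 was the lowest of its age and still above every E16.5 array, and Pdpn fell by 1.71 ± 0.17 (adjusted p = 5.2e-06).

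Sema3d, a secreted guidance factor, measured 6.63, 6.20 and 6.32 at E14.5 and 4.70, 5.03 and 4.98 at E16.5 and fell by 1.48 ± 0.19 (adjusted p = 7.5e-05). Mmrn1, a secreted multimerin made by platelets and lymphatic endothelium, measured 9.54, 9.05 and 9.33 at E14.5 and 7.77, 8.26 and 7.95 at E16.5. It remained well above the dim level at E16.5 and fell by 1.31 ± 0.17 (adjusted p = 1.2e-04). Nts, the precursor of the peptide neurotensin, measured 5.95, 5.69 and 5.94 at E14.5 and 4.41, 4.47 and 4.64 at E16.5 and fell by 1.36 ± 0.20 (adjusted p = 2.7e-04), so its mean at E16.5 was below the dim level.

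Among the regulators on the list, Tbx1, a T-box factor needed for lymphatic growth, measured 8.32, 8.49 and 8.48 at E14.5 and 7.39, 7.25 and 7.38 at E16.5. The groups lay far apart compared with the spread within each, and Tbx1 fell by 1.09 ± 0.09 (adjusted p = 1.3e-06). Maf, a bZIP transcription factor, fell by 0.87 ± 0.14 (adjusted p = 6.9e-04). Flt4 (VEGFR3), the receptor for VEGFC, measured 9.94, 9.84 and 10.03 at E14.5 and 9.20, 9.07 and 9.22 at E16.5; it kept a high level in BEC at both ages and fell by 0.78 ± 0.11 (adjusted p = 3.3e-04). Smaller falls were found for the surface protein Thy1 (-0.75 ± 0.13, adjusted p = 0.0013), the integrin chain Itga9 (-0.60 ± 0.11, adjusted p = 0.0016) and Rassf9 (-0.44 ± 0.13, adjusted p = 0.044).

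Other members did not follow. Lyve1, a hyaluronan receptor and a standard lymphatic marker, measured 7.26, 7.08 and 7.41 at E14.5 and 7.15, 7.24 and 6.93 at E16.5; the 2 ages overlapped and the difference was -0.14 ± 0.13 (adjusted p = 0.53). Gata2 measured 9.07, 9.15 and 8.66 at E14.5 and 8.56, 8.76 and 8.60 at E16.5, with E14.5 replicate 3 down among the E16.5 values, and differed by -0.32 ± 0.21 (adjusted p = 0.34). Nr2f2 (COUP-TFII), a nuclear receptor of venous and lymphatic cells, differed by -0.12 ± 0.11 (adjusted p = 0.53), and Nrp2, a co-receptor of VEGFC, by 0.05 ± 0.10 (adjusted p = 0.8). The valve regulator Foxc2 differed by -0.27 ± 0.17 (adjusted p = 0.34), the scavenger receptor Stab2 by -0.24 ± 0.15 (adjusted p = 0.33), Klhl4 by -0.37 ± 0.14 (adjusted p = 0.11), the chemokine scavenger Ackr2 by -0.32 ± 0.19 (adjusted p = 0.32) and the tight junction gene Cldn11 by -0.06 ± 0.16 (adjusted p = 0.85). The orphan nuclear receptor Nr2f1 (0.56 ± 0.13, adjusted p = 0.012) and the homeobox gene Hoxd8 (0.58 ± 0.10, adjusted p = 8.1e-04) rose, and 1 of the 2 did without BEC E14.5 replicate 3 or E16.5 replicate 2.

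**Figure D2:**
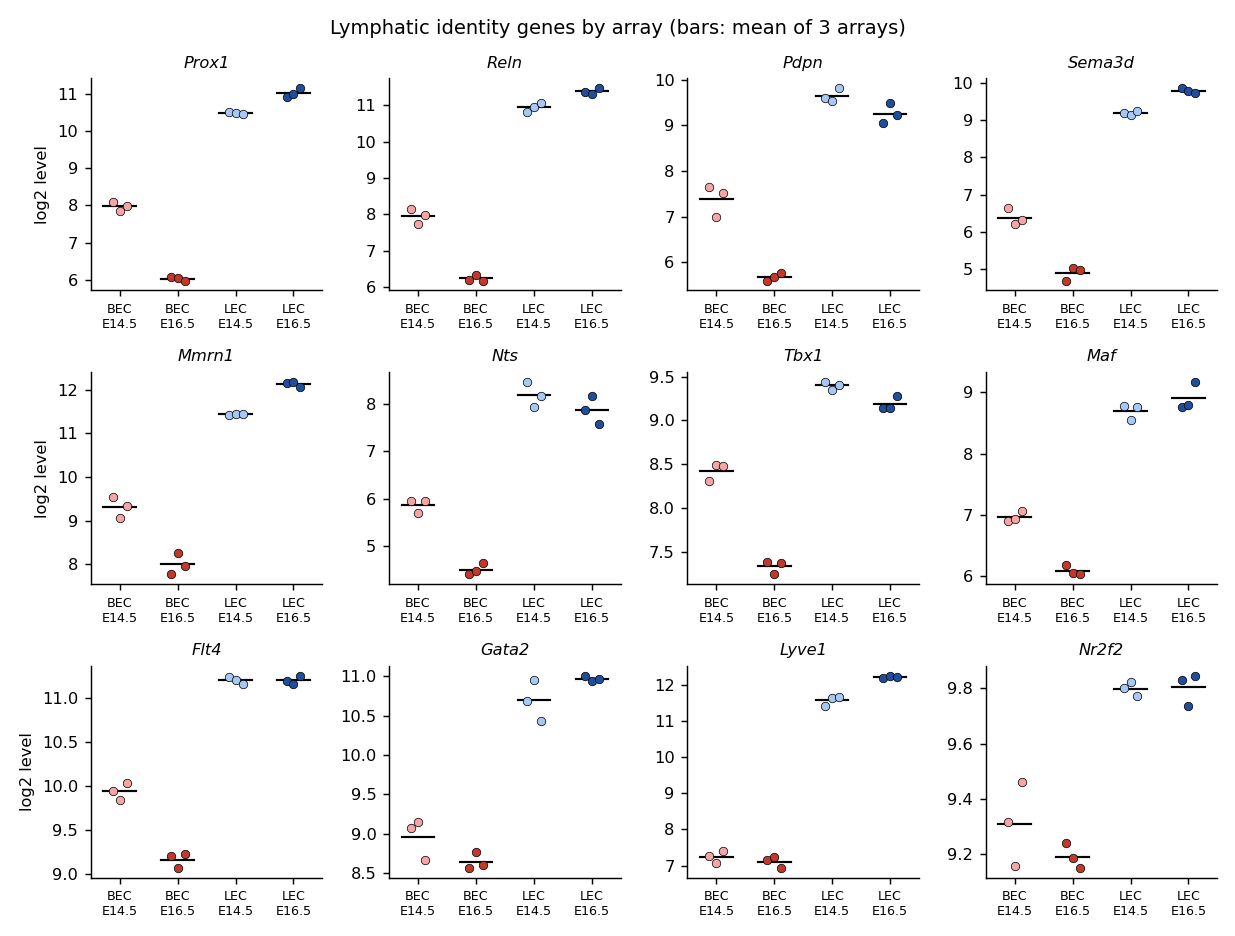
Each panel shows the log2 level of one lymphatic identity gene in the 3 arrays of BEC and LEC at E14.5 and E16.5, with a bar at the mean of 3 arrays; the y axes differ between panels. Prox1, Reln, Pdpn, Sema3d and Mmrn1 drop in BEC without overlap, while Lyve1 and Nr2f2 overlap in BEC between the ages.

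Expressed as a share of the LEC level at the same age, 21 genes of this list passed the test as higher in LEC than in BEC at both ages, and for 20 of these the share in BEC was lower at E16.5. The median share was 30.1% at E14.5 and 14.2% at E16.5, with ranges of 5.01% to 71.3% and 2.81% to 65.4%. Prox1 in BEC was 17.5% of its level in LEC at E14.5 (16.1% to 18.7% by replicate number) and 3.15% at E16.5 (2.77% to 3.48%). The share of Reln moved from 12.5% to 2.81%, that of Sema3d from 14.2% to 3.37% and that of Mmrn1 from 22.9% to 5.67%. Lyve1 had the lowest share at E14.5, 5.01%, and was at 2.89% at E16.5, a step that combines its difference of -0.14 in BEC with a rise in LEC of 0.65 ± 0.13 (adjusted p = 0.002). Nrp2 was the exception among the 21, at 50.6% and 65.2%. Nr2f1, which passed as higher in LEC at E14.5 only, was at 64.8% and 81.8%. Hoxd8, which was not higher in LEC at either age, was at 120% and 149%. The choice of the 21 used the same arrays as the shares. Both genes that it left out had a larger share at E16.5.

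**Figure D3:**
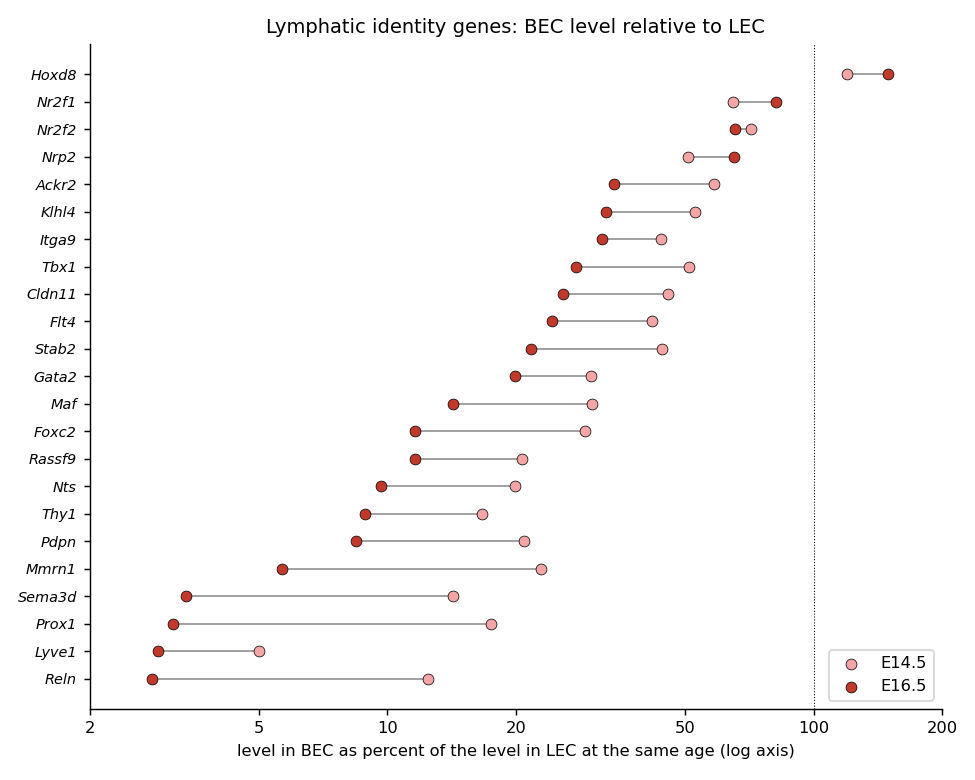
For each of the 23 measured lymphatic identity genes, the x axis (log scale) gives the mean level in BEC as a percent of the mean level in LEC at the same age, at E14.5 (pale) and E16.5 (dark). The median over the 21 genes that passed as higher in LEC at both ages moved from 30.1% to 14.2%, and Nr2f1, Nrp2 and Hoxd8 lie to the right at E16.5.

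A wider set of marked genes was taken from the levels in the E18.5 arrays, which do not enter the difference between E16.5 and E14.5 but do enter the estimate of the spread behind its calls. Choosing genes by their distance at E18.5 also favours those whose distance grew before that age. The shares over all genes carry no such choice, so the counts are a description. At E18.5, 311 genes were higher in LEC than in BEC by at least 2. In BEC from E14.5 to E16.5, 57 of these (18.3%) fell, against 4.66% of all genes, and 20 (6.43%) rose, against 5.1%. Their median in BEC was -0.07, close to the -0.05 over all genes. Their median difference in LEC was 0.87, against -0.03 over all genes. The changes of 163 of them differed between the cell types toward LEC (1.89% of all genes did) and of 0 toward BEC (0.742% of all genes). The median distance between LEC and BEC for these genes was 1.59 at E14.5 and 2.59 at E16.5. In both BEC groups 67 of the 311 were dim, and 29 belonged to the marker lists of other cell types. Without these 29, 54 of 282 fell and 17 rose. The marker lists do not hold every immune cell gene. Cd33 and Cd86, for example, stayed in the set and differed by 1.58 and 1.93 in LEC, against -0.06 and -0.08 in BEC. The part of such genes in the LEC median and in the distances was not tested. With a distance of 1 in place of 2, 114 of 911 fell and 48 rose. The count of rises was 13 without E14.5 replicate 3 or E16.5 replicate 2 of BEC.

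Several of the fallers are outside the lymphatic list and were chosen here after their values were seen. Of these, 3 encode parts of the apical polarity complex: Prkcz, an atypical protein kinase C, measured 7.15, 6.53 and 7.08 at E14.5 and 5.64, 5.81 and 5.49 at E16.5 and fell by 1.27 ± 0.17 (adjusted p = 1.2e-04). Its partner Pard6g fell by 1.08 ± 0.12 (adjusted p = 1.9e-05) and the scaffold Pard3 by 0.96 ± 0.10 (adjusted p = 1.2e-05). The endophilin Sh3gl3 fell by 1.30 ± 0.16 (adjusted p = 6.7e-05), the sodium channel Scn3a by 0.65 ± 0.13 (adjusted p = 0.0053) and the scavenger receptor Stab1 by 0.53 ± 0.11 (adjusted p = 0.005). Among the 20 that rose were the mast cell protease Mcpt4 (1.59 ± 0.45, adjusted p = 0.031), the leukocyte receptor Lilrb4a (1.51 ± 0.32, adjusted p = 0.0065), the protease inhibitor Serpinb1a (1.5 ± 0.37, adjusted p = 0.014), the serotonin transporter Slc6a4 (1.29 ± 0.37, adjusted p = 0.034), the guanylate cyclase subunit Gucy1b1 (1.35 ± 0.23, adjusted p = 0.0013) and the growth factor Igf1 (0.46 ± 0.11, adjusted p = 0.012). Mcpt4 is on the mast cell list, which is described with the other cell types.

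In the opposite set, 182 genes were higher in BEC than in LEC by at least 2 at E18.5. Of these 94 (51.6%) rose in BEC from E14.5 to E16.5, against 5.1% of all genes, and 1 (0.549%) fell, against 4.66%. The median was 0.49, against -0.05 over all genes. Here too the choice at E18.5 favours genes that rose in BEC before that age, which the shares over all genes do not share. The one that fell was Eogt, an enzyme that adds N-acetylglucosamine to secreted proteins (-0.49 ± 0.13, adjusted p = 0.024). The changes of 50 of the 182 differed between the cell types toward BEC (0.742% of all genes did) and of 0 toward LEC. Without the markers of other cell types 88 of 173 rose. In LEC 26 of the 182 rose and 23 fell, with a median of 0.08.

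Genes of blood endothelial identity rose or did not pass the test. Of 20 measured members 6 rose and 0 fell, with a median of 0.38, and without any one of the 6 BEC arrays 4 rose. In LEC 8 of the 20 rose and 2 fell, with a median of 0.36. The changes of 2 members differed between the cell types toward BEC and of 0 toward LEC. Jam2, a junctional adhesion molecule, measured 7.22, 7.69 and 7.39 at E14.5 and 9.19, 9.01 and 9.35 at E16.5, with the ages well apart, and rose by 1.75 ± 0.19 (adjusted p = 1.2e-05). Aqp1, the water channel of capillaries, measured 10.22, 10.89 and 10.39 at E14.5 and 12.12, 12.00 and 12.11 at E16.5 and rose by 1.57 ± 0.30 (adjusted p = 0.0029). In LEC Aqp1 differed by 1.15, and its BEC change minus its LEC change was 0.42 (adjusted p = 0.79), which did not pass. Vwf (von Willebrand factor), which tethers platelets, rose by 1.09 ± 0.18 (adjusted p = 8.1e-04). Gpihbp1, the capillary anchor of lipoprotein lipase, rose by 0.72 ± 0.12 (adjusted p = 9.5e-04), the SOX factor Sox17 by 0.55 ± 0.16 (adjusted p = 0.039) and the receptor Cd93 by 0.37 ± 0.11 (adjusted p = 0.049). The VEGF receptor Flt1 differed by 0.48 ± 0.17 (adjusted p = 0.083) and the sialomucin Emcn by 0.40 ± 0.13 (adjusted p = 0.064), and neither passed the test. Of 20 pan-endothelial genes 4 rose and 0 fell, with a median of 0.14: the phosphatase Ptprb by 0.65 ± 0.10 (adjusted p = 6.8e-04), the sphingosine receptor S1pr1 by 0.49 ± 0.10 (adjusted p = 0.0038), the angiopoietin receptor Tek by 0.39 ± 0.10 (adjusted p = 0.024) and the ETS factor Erg by 0.32 ± 0.09 (adjusted p = 0.036). This count was 9 with a common median and 2 without any one of E14.5 replicates 2 and 3 and E16.5 replicates 1, 2 and 3. Of the 20 pan-endothelial genes 7 rose and 1 fell in LEC, with a median of 0.16.

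Of 20 arterial genes 10 rose and 0 fell, with a median of 0.40, and 8 to 10 rose with one BEC array left out. In LEC 9 of the 20 rose and 2 fell, with a median of 0.18. The changes of 3 differed between the cell types toward BEC and of 2 toward LEC. Gja5 (connexin 40), the gap junction protein of arterial endothelium, measured 8.51, 8.36 and 8.47 at E14.5 and 9.82, 9.71 and 9.62 at E16.5. The ages did not overlap and the rise was 1.27 ± 0.24 (adjusted p = 0.0023), while its rise in LEC was 1.23 ± 0.24 (adjusted p = 0.0015). The Notch ligand Jag1 measured 8.23, 8.25 and 8.16 at E14.5 and 9.33, 9.19 and 9.27 at E16.5 and rose by 1.05 ± 0.12 (adjusted p = 3.1e-05). Fbln5, an elastic fibre protein, rose by 2.08 ± 0.18 (adjusted p = 1.4e-06), Stmn2 by 1.26 ± 0.22 (adjusted p = 0.0013), the WNT inhibitor Dkk2 by 1.05 ± 0.13 (adjusted p = 7.6e-05), the kinase Bmx by 0.88 ± 0.14 (adjusted p = 7.6e-04), the Notch target Hey2 by 0.81 ± 0.20 (adjusted p = 0.014) and the growth factor Vegfc by 0.77 ± 0.13 (adjusted p = 9.0e-04). Sema3g (0.58 ± 0.14, adjusted p = 0.015) and Efnb2, the ephrin that marks arteries (0.41 ± 0.10, adjusted p = 0.014), made up the rest. The Notch ligand Dll4 (0.19 ± 0.12, adjusted p = 0.31), Gja4 (0.20 ± 0.15, adjusted p = 0.42) and Hey1 (-0.29 ± 0.15, adjusted p = 0.22) did not pass. On the venous list 1 of 10 measured genes rose, Vwf, and 0 fell, with a median of 0.02, where 5.1% of all genes rose and 4.66% fell. On the tip cell and sprouting list 0 of 18 genes passed in either direction, with a median of 0.08, including Esm1 (-0.01 ± 0.19, adjusted p = 0.99) and Apln (-0.37 ± 0.25, adjusted p = 0.37).

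Among 16 genes of VEGF and angiopoietin signalling 3 rose (Vegfc, Ptprb and Tek) and 2 fell, Flt4 and the placental growth factor Pgf (-0.90 ± 0.22, adjusted p = 0.013), with a median of 0.08. Without E16.5 replicate 3 of BEC 1 of these fell. In the Notch pathway 3 of 18 rose and 1 fell, with a median of 0.05: Jag1, Hey2 and the mural receptor Notch3 (0.81 ± 0.12, adjusted p = 3.8e-04) rose, and Notch2 fell by 0.40 ± 0.12 (adjusted p = 0.044). The fall of Notch2 lost its call without E14.5 replicate 1 or 3 or E16.5 replicate 1 or 3 of BEC, and under both other scalings. The receptors Notch1 (0.07 ± 0.11, adjusted p = 0.75) and Notch4 (-0.06 ± 0.12, adjusted p = 0.81) did not pass. Of 20 genes of BMP and TGF-beta signalling 3 rose and 0 fell, with a median of 0.08, and all 3 are receptors: Bmpr1a by 0.70 ± 0.19 (adjusted p = 0.027), Tgfbr3 by 0.50 ± 0.11 (adjusted p = 0.007) and Bmpr2 by 0.35 ± 0.10 (adjusted p = 0.026). Without E14.5 replicate 2, E14.5 replicate 3 or E16.5 replicate 2 only 1 rose. Of 14 flow response genes 3 rose and 2 fell, with a median of 0.24. The rises were thrombomodulin (Thbd, 0.66 ± 0.13, adjusted p = 0.0034), S1pr1 and Tek, and the falls were Ankrd1 (-1.20 ± 0.18, adjusted p = 3.5e-04) and Ccn2 (-0.60 ± 0.12, adjusted p = 0.0039), both known targets of YAP and TAZ. Klf2, the shear stress factor, differed by 0.27 ± 0.13 (adjusted p = 0.2). Of the 14 flow response genes 9 rose and 1 fell in LEC, with a median of 0.48. The changes of 5 differed between the cell types toward LEC and of 1 toward BEC.

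The capillary fatty acid uptake list had 12 of 15 measured members that rose and 0 that fell, and a median of 0.95. With one BEC array left out 10 to 11 rose, and the 3 that did not pass were Tcf15 (-0.24 ± 0.16, adjusted p = 0.38), Slc27a3 (0.02 ± 0.16, adjusted p = 0.95) and Slc27a4 (-0.05 ± 0.14, adjusted p = 0.84). In LEC 5 of the 15 rose and 1 fell, with a median of 0.17, and the changes of 6 differed toward BEC. The lists were chosen with earlier results of these data known, so the direction of a list is a description.

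Fabp4, a fatty acid binding protein of capillary endothelium and fat cells, measured 8.60, 9.38 and 8.87 at E14.5 and 11.63, 11.40 and 11.52 at E16.5. All E16.5 arrays were far above all E14.5 arrays, of which replicate 2 was the highest, and the rise was 2.56 ± 0.15 (adjusted p = 3.8e-08). Pparg, the nuclear receptor that responds to fatty acids and drives such genes in fat cells, measured 7.12, 7.63 and 7.43 at E14.5 and 9.14, 9.09 and 9.16 at E16.5. It rose by 1.74 ± 0.15 (adjusted p = 1.4e-06) with no overlap. Aqp7, a channel for water and glycerol, measured 5.88, 6.49 and 5.99 at E14.5 and 8.53, 8.10 and 8.44 at E16.5 and rose by 2.24 ± 0.23 (adjusted p = 1.2e-05). The fatty acid translocase Cd36 measured 10.78, 10.76 and 10.75 at E14.5 and 11.99, 11.95 and 11.92 at E16.5, with little spread within an age, and rose by 1.19 ± 0.16 (adjusted p = 1.2e-04). The retinol binding protein Rbp7 rose by 1.5 ± 0.19 (adjusted p = 6.0e-05) and the carbonic anhydrase Car4, a marker of capillaries, by 1.39 ± 0.17 (adjusted p = 4.4e-05). Lipoprotein handling moved the same way: Lpl (lipoprotein lipase) rose by 0.80 ± 0.14 (adjusted p = 0.0013) and its inhibitor Angptl4 by 0.96 ± 0.16 (adjusted p = 0.0011). Smaller rises were those of the protease inhibitor Timp4 (0.95 ± 0.16, adjusted p = 8.1e-04), the binding protein Fabp5 (0.54 ± 0.13, adjusted p = 0.015) and the homeobox gene Meox2 (0.43 ± 0.13, adjusted p = 0.036). Fabp5 fell in LEC, by 0.93 ± 0.13 (adjusted p = 9.8e-05). In LEC Cd36 differed by 1.30 and Fabp4 by 1.57, against 0.24 for Aqp7 and 0.07 for Car4. The BEC change minus the LEC change was -0.11 for Cd36 (adjusted p = 0.92), which did not pass. For Fabp4 it was 1.00 (adjusted p = 0.016).

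Of 15 measured genes of leukocyte adhesion 6 rose and 0 fell, with a median of 0.14, and the count was 3 without E14.5 replicate 1, E16.5 replicate 1 or E16.5 replicate 2 of BEC. Sele (E-selectin), on which leukocytes roll, measured 6.31, 6.19 and 6.02 at E14.5 and 8.88, 8.58 and 8.67 at E16.5. The ages were separated by more than 2 log2 units, and Sele rose by 2.54 ± 0.28 (adjusted p = 1.5e-05). The chemokine Cxcl12 measured 5.88, 6.18 and 6.14 at E14.5 and 7.40, 7.25 and 7.18 at E16.5 and rose by 1.21 ± 0.16 (adjusted p = 1.2e-04). Vcam1 rose by 0.53 ± 0.15 (adjusted p = 0.033), and Jam3 (0.45 ± 0.12, adjusted p = 0.02) and F11r (0.40 ± 0.12, adjusted p = 0.044), junctional molecules related to Jam2, rose with it. Icam1 (0.04 ± 0.15, adjusted p = 0.9) and Icam2 (0.02 ± 0.11, adjusted p = 0.94) did not pass. Of 16 genes of coagulation and vasoregulation 7 rose and 0 fell, with a median of 0.45, and 7 rose whichever BEC array was left out. They were the endothelin receptor Ednrb (1.22 ± 0.14, adjusted p = 2.6e-05), the angiotensin converting enzyme Ace (1.16 ± 0.14, adjusted p = 4.6e-05), Vwf, the clotting factor F8 (0.97 ± 0.16, adjusted p = 7.9e-04), the adrenomedullin receptor Calcrl (0.78 ± 0.10, adjusted p = 5.6e-05), Thbd and the protein C receptor Procr (0.50 ± 0.11, adjusted p = 0.0075). Nos3, the endothelial nitric oxide synthase, differed by 0.17 ± 0.17 (adjusted p = 0.55). In LEC 8 of these 16 coagulation and vasoregulation genes rose and 1 fell, with a median of 0.41.

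Transport and matrix lists were mixed and had few called members, where 5.1% of all genes rose and 4.66% fell. On the list of barrier-type transport and junctions 2 of 20 rose, the efflux pump Abcb1a (0.95 ± 0.13, adjusted p = 1.3e-04) and the thyroxine carrier Slco1c1 (0.93 ± 0.15, adjusted p = 7.1e-04), and 2 fell, with a median of 0.07. The falls were the glucose transporter Slc2a1 (-0.66 ± 0.15, adjusted p = 0.0083), which measured 11.48, 11.25 and 11.51 at E14.5 and 10.72, 10.84 and 10.69 at E16.5, and the amino acid transporter Slc7a1 (-0.32 ± 0.10, adjusted p = 0.042). Slc7a1 lost its call without any one of the 6 BEC arrays. On the whole list 1 gene fell when any BEC array other than E16.5 replicate 3 was left out, and 3 fell without that array. Of 10 caveolar genes Cav2 (0.67 ± 0.10, adjusted p = 3.5e-04) and Cavin2 (0.66 ± 0.10, adjusted p = 3.1e-04) rose and 0 fell, with a median of 0.14, and 5 rose with a common median. Of the 10 caveolar genes 6 rose and 0 fell in LEC, with a median of 0.39. Of 14 basement membrane genes the laminin chains Lama5 (0.69 ± 0.15, adjusted p = 0.007) and Lamb2 (0.54 ± 0.13, adjusted p = 0.011) rose and 0 fell, with a median of 0.08.

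Most genes of sterol and fatty acid synthesis fell. Of 17 measured genes 12 fell and 0 rose, with a median of -0.60, and the 5 that did not pass were also lower. The count was 8 without E14.5 replicate 3 of BEC and 9 without E14.5 replicate 1 or E16.5 replicate 3, and it was 10 to 15 under the alternative settings. In LEC 10 fell and 0 rose, with a median of -0.48, and for 0 of the 17 did the changes of the cell types differ. Insig1, which holds the sterol sensor in the endoplasmic reticulum, measured 9.70, 9.57 and 9.90 at E14.5 and 8.70, 8.86 and 8.48 at E16.5, with no overlap, and fell by 1.04 ± 0.12 (adjusted p = 4.3e-05). Srebf2, the transcription factor that drives the pathway, fell by 0.61 ± 0.10 (adjusted p = 6.9e-04). Hmgcs1, the HMG-CoA synthase, measured 9.60, 9.34 and 9.59 at E14.5 and 8.60, 8.94 and 8.66 at E16.5 and fell by 0.78 ± 0.13 (adjusted p = 0.0012). In the later steps Mvd fell by 0.64 ± 0.15 (adjusted p = 0.013), Fdps by 0.71 ± 0.10 (adjusted p = 3.1e-04), Sqle by 0.54 ± 0.10 (adjusted p = 0.0029), Lss by 0.72 ± 0.12 (adjusted p = 9.7e-04), Sc5d by 0.72 ± 0.11 (adjusted p = 6.2e-04) and Dhcr7 by 0.45 ± 0.12 (adjusted p = 0.023). Cyp51 measured 7.88, 7.32 and 7.96 at E14.5 and 6.78, 7.44 and 6.93 at E16.5; E16.5 replicate 2 lay inside the range of E14.5, and the fall was 0.67 ± 0.18 (adjusted p = 0.024). Fatty acid synthase (Fasn) fell by 0.60 ± 0.10 (adjusted p = 9.8e-04) and the elongase Elovl6 by 0.43 ± 0.13 (adjusted p = 0.041).

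Because these genes moved together, the 250 bases before their starts were searched in the RefSeq promoter table (GRCm38.p6) for CCAAT, the core of the binding site of NF-Y, on both strands. The search was chosen after the changes were seen. Of the 12 fallers 10 had an entry, and 9 of these (90%) held CCAAT, against 37.5% of the 27025 genes in the table. A second motif, TCACNCCAC, a form of the sterol regulatory element bound by SREBP, was in 1 of the 10 (10%), Hmgcs1, against 1.22% of all genes. A match describes letters and shows neither binding nor a cause, and no match says only that these letters are not in this window. The windows of 4 of the fallers follow, because they hold the motif once or several times; capitals mark CCAAT or its reverse complement ATTGG, and in Hmgcs1 also TCACCCCAC. They are Hmgcs1 at chr13:119690101-119690350 (plus strand), Mvd at chr8:122443423-122443672 (minus strand), Cyp51 at chr5:4104698-4104947 (minus strand) and Lss at chr10:76531355-76531604 (plus strand), each written 5′ to 3′ on the strand of the gene and ending at the base before its start.
Hmgcs1: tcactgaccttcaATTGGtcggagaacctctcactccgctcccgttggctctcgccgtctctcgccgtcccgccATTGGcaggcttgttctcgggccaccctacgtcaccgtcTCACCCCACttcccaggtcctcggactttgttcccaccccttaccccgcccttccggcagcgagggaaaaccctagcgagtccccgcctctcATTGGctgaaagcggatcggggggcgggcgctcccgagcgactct
Mvd: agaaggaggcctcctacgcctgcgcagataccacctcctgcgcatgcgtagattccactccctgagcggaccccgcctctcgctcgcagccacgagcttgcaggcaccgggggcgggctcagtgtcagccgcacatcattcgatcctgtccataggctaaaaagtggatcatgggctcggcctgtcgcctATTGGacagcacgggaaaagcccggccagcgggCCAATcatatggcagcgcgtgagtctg
Cyp51: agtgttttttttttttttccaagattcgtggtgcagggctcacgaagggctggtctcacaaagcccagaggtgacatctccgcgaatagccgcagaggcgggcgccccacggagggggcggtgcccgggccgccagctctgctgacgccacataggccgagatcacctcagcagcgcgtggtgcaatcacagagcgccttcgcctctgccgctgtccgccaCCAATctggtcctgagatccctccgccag
Lss: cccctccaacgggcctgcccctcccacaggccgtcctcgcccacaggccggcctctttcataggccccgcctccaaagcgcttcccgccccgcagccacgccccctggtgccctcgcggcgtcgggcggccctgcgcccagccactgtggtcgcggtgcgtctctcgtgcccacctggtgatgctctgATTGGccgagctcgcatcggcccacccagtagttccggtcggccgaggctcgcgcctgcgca

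Hmgcs1 held CCAAT 3 times, Mvd 2 times, and Cyp51 and Lss 1 time each. The same search in the fallers of the lymphatic list found the GATA core GATAA on either strand in 2 of 9 genes with an entry (22.2%), against 25.5% of all genes, and CCAAT in 2 of 9. For the risers of the fatty acid uptake list, the PPAR type direct repeat, AGGTCA followed after 1 base by a second AGGTCA, searched on both strands, was in 0 of 7 genes with an entry, against 0.0407% of all genes.

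Fatty acid oxidation had 4 of 15 genes that rose and 0 that fell, with a median of 0.14: the dehydrogenases Acadvl (0.57 ± 0.11, adjusted p = 0.0022) and Acadl (0.43 ± 0.10, adjusted p = 0.012), Etfdh (0.44 ± 0.10, adjusted p = 0.0095) and Hadhb (0.43 ± 0.11, adjusted p = 0.018). The count was 7 with a common median and 1 without E14.5 replicate 2 or E16.5 replicate 2 of BEC. The carnitine transferase Cpt1a differed by 0.29 ± 0.10 (adjusted p = 0.074). Of 12 measured glycolysis genes Pgam1 (-0.41 ± 0.12, adjusted p = 0.03), Tpi1 (-0.36 ± 0.11, adjusted p = 0.044) and Aldoa (-0.32 ± 0.09, adjusted p = 0.034) fell and Pfkm (0.34 ± 0.11, adjusted p = 0.047) rose, with a median of -0.20. The rise of Pfkm lost its call without any one of the 6 BEC arrays and after quantile normalization was repeated. Without E16.5 replicate 1 of BEC 1 of these genes fell, and without any other BEC array, or with a common median, 0 fell.

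Of 29 measured cell cycle genes 3 passed the test, where 9.76% of all genes did. Of these 2 fell, the helicase subunit Mcm2 (-0.34 ± 0.10, adjusted p = 0.033) and the kinase Aurkb (-0.33 ± 0.10, adjusted p = 0.045), and E2f1 rose (0.32 ± 0.10, adjusted p = 0.049), with a median of -0.08. With any one BEC array left out, or with a common median, 0 fell, and E2f1 kept its call only without E14.5 replicate 2 when 1 array was left out. In LEC the median was -0.37, with 14 that fell and 1 that rose. The proliferation marker Mki67 differed by 0.11 ± 0.09 (adjusted p = 0.42) and Top2a by -0.06 ± 0.10 (adjusted p = 0.74). Among 15 measured oncofetal and imprinted genes 2 fell and 3 rose, with a median of -0.04. The chromatin protein Hmga2, a gene of fetal growth, measured 8.07, 8.02 and 8.15 at E14.5 and 7.24, 7.18 and 7.33 at E16.5 and fell by 0.83 ± 0.15 (adjusted p = 0.0014), and the RNA binding protein Igf2bp1 fell by 0.62 ± 0.10 (adjusted p = 7.0e-04). Meg3 (0.76 ± 0.13, adjusted p = 0.0014), Dlk1 (0.69 ± 0.18, adjusted p = 0.019) and the receptor Igf2r (0.36 ± 0.10, adjusted p = 0.033), all imprinted, rose, and 1 rose without E14.5 replicate 1, E16.5 replicate 1 or E16.5 replicate 2. Of 19 haematopoietic regulators 2 fell and 0 rose, with a median of -0.18, namely Gata3 (-0.74 ± 0.18, adjusted p = 0.014) and Gfi1b (-0.64 ± 0.15, adjusted p = 0.011). Without E14.5 replicate 1 or 2 of BEC 1 fell, and without E16.5 replicate 2 of BEC 0 fell.

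Immediate early genes, which respond within minutes to stimuli and also to tissue dissociation, had 7 of 16 that rose and 0 that fell, with a median of 0.53. In LEC 9 rose and the median was 0.58. Fosb measured 9.36, 8.78 and 9.03 at E14.5 and 10.30, 10.26 and 9.89 at E16.5 and rose by 1.09 ± 0.13 (adjusted p = 6.3e-05), Fos rose by 0.87 ± 0.13 (adjusted p = 3.5e-04), Egr1 by 0.81 ± 0.12 (adjusted p = 4.0e-04), Zfp36 by 0.78 ± 0.14 (adjusted p = 0.0018), Atf3 by 0.67 ± 0.13 (adjusted p = 0.0034), Jun by 0.62 ± 0.10 (adjusted p = 6.5e-04) and Egr2 by 0.60 ± 0.18 (adjusted p = 0.043). The count was 13 with the common median and 14 with array weights. Of 15 measured genes of the interferon response and antigen presentation 4 rose and 0 fell, with a median of 0.25: Irf1 (0.86 ± 0.13, adjusted p = 4.6e-04), Tap1 (0.56 ± 0.17, adjusted p = 0.047), Tapbp (0.51 ± 0.13, adjusted p = 0.018) and Psmb8 (0.47 ± 0.13, adjusted p = 0.027). The count was 1 to 2 with any one BEC array left out. A dimmer row of Irf1 differed by 0.27 in BEC. Of 8 GIMAP GTPases, small proteins of lymphocytes and endothelium, 4 rose and 0 fell, with a median of 0.44, led by Gimap4 (0.81 ± 0.14, adjusted p = 0.0012) and Gimap8 (0.68 ± 0.13, adjusted p = 0.0031), and 2 rose without E14.5 replicate 2 or 3 of BEC.

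**Figure D4:**
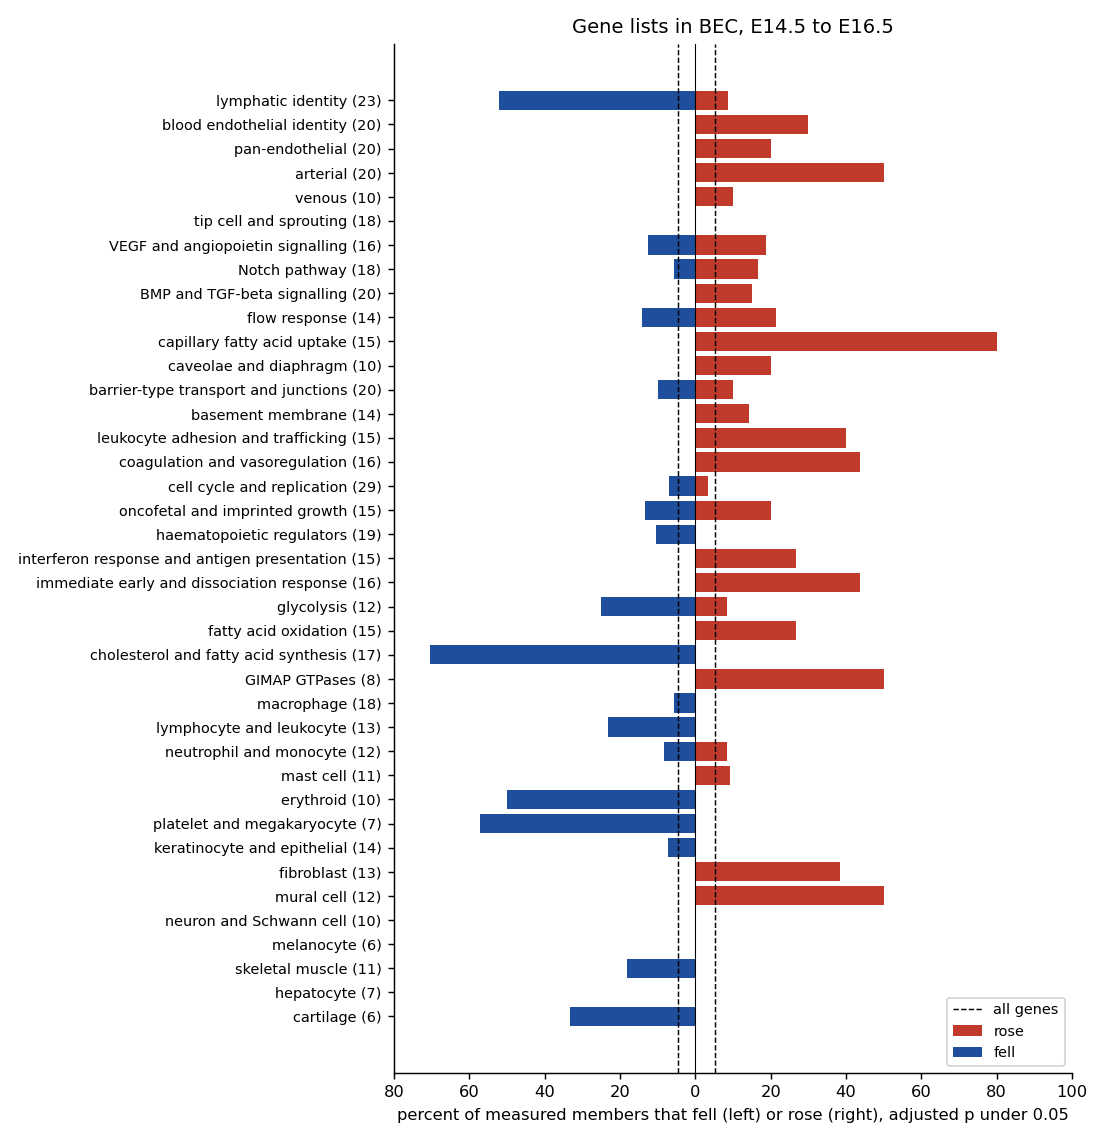
For each of the 39 gene lists, with the number of measured members in brackets, the bars give the percent of members that rose (right) or fell (left) in BEC from E14.5 to E16.5; dashed lines mark all genes (5.1% rose, 4.66% fell). Fatty acid uptake (12 of 15 rose), sterol and fatty acid synthesis (12 of 17 fell) and lymphatic identity (12 of 23 fell) have the longest bars among the endothelial and metabolic lists.

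The largest single rises included genes outside these lists. Fbln2, a matrix protein, measured 6.54, 7.25 and 6.97 at E14.5 and 9.46, 8.95 and 9.45 at E16.5 and rose by 2.36 ± 0.20 (adjusted p = 1.2e-06), and it rose in LEC by 1.75 ± 0.20 (adjusted p = 1.2e-05). Ablim3, an actin binding protein, measured 5.13, 5.88 and 5.36 at E14.5 and 7.68, 7.36 and 7.39 at E16.5 and rose by 2.02 ± 0.17 (adjusted p = 1.1e-06). Galnt15, a glycosyltransferase, measured 6.03, 5.97 and 5.90 at E14.5 and 7.93, 7.81 and 7.83 at E16.5, with hardly any spread within an age, and rose by 1.89 ± 0.15 (adjusted p = 8.7e-07). Lrat, which esterifies retinol, rose by 1.91 ± 0.32 (adjusted p = 8.3e-04), and Osmr, the oncostatin M receptor, by 1.76 ± 0.16 (adjusted p = 2.0e-06). The adhesion molecule Ceacam1 (1.62 ± 0.17, adjusted p = 1.2e-05) and the endothelial mucin receptor Cd300lg (1.46 ± 0.19, adjusted p = 8.7e-05) were named after their values were seen. The monoacylglycerol lipase Mgll rose by 0.89 ± 0.17 (adjusted p = 0.0029) in BEC and fell by 1.02 ± 0.17 (adjusted p = 4.6e-04) in LEC.

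Among the largest falls outside the lymphatic list, Ptx3, a secreted pentraxin of innate immunity, measured 7.88, 7.47 and 7.81 at E14.5 and 5.62, 6.08 and 5.18 at E16.5. Its E16.5 arrays were spread over almost 1 log2 unit but all lay below E14.5, and it fell by 2.09 ± 0.24 (adjusted p = 3.4e-05). Hapln1, which links hyaluronan to proteoglycans, measured 7.05, 6.35 and 6.73 at E14.5 and 4.86, 5.21 and 4.96 at E16.5 and fell by 1.70 ± 0.27 (adjusted p = 7.1e-04). Macrod2 (-1.63 ± 0.22, adjusted p = 1.3e-04), the ganglioside synthase St8sia1 (-1.45 ± 0.17, adjusted p = 3.1e-05) and the imprinted gene Nnat (-1.44 ± 0.15, adjusted p = 1.2e-05) also fell, and each of the 3 fell in LEC too, by 1.34, 1.33 and 1.32. The value of Macrod2 is that of its brightest row. Its other rows on the array differed by -0.43, -0.39, -0.36, -0.05 and 0.005 in BEC.

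**Figure D5:**
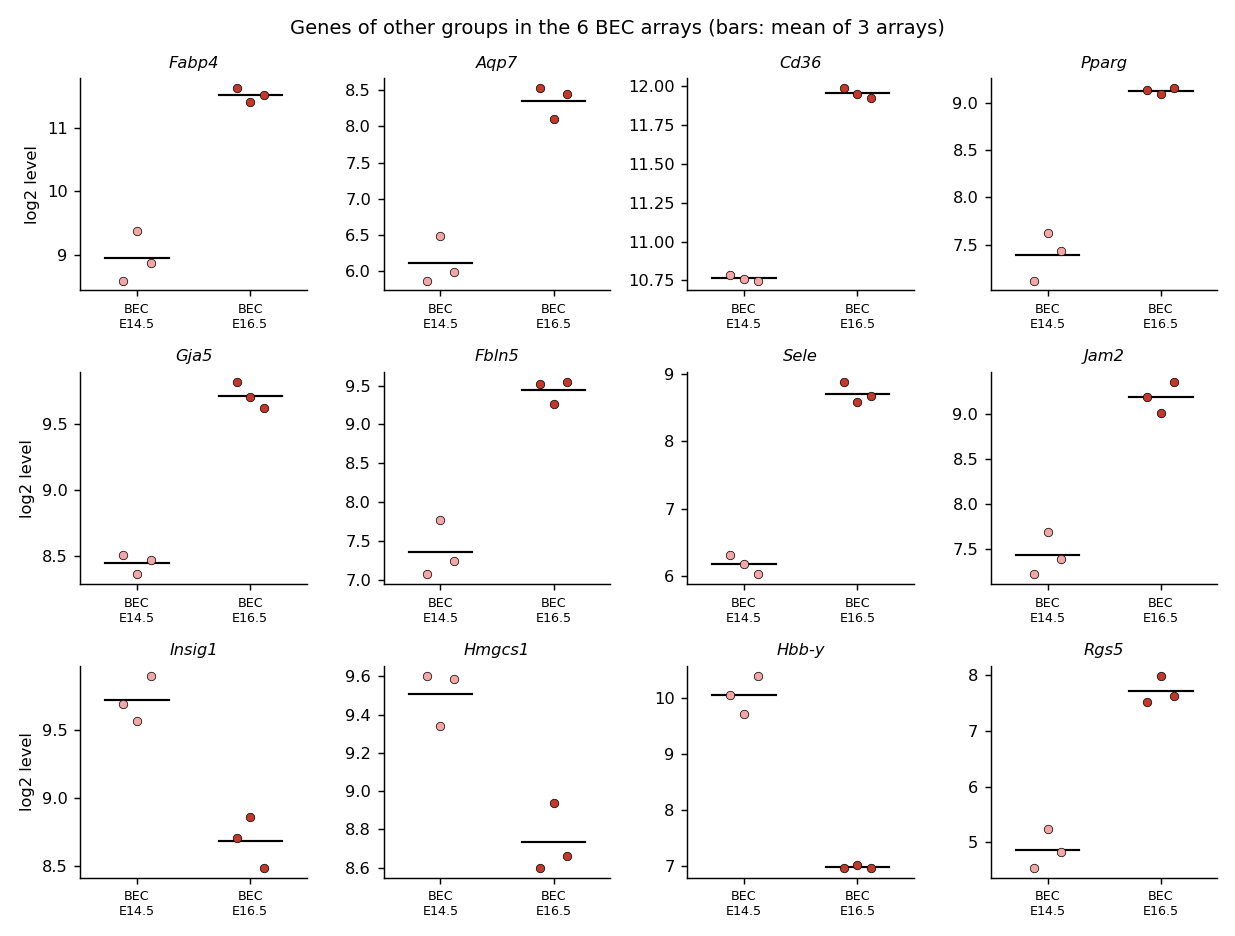
Each panel shows the log2 level of one gene in the 3 BEC arrays of E14.5 and of E16.5, with a bar at the mean of 3 arrays; the y axes differ between panels. Fabp4, Aqp7, Sele and Rgs5 rise by more than 2 log2 units, Insig1 and Hmgcs1 fall, and Hbb-y falls by 3.07.

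Markers of other cell types moved with age as well, and their part in the results above was not tested. Mural cell markers, which label the pericytes and smooth muscle around vessels, rose in 6 of 12 and fell in 0, with a median of 0.62; the mean level of the list was 5.58 to 5.67 per array at E14.5 and 6.32 to 6.47 at E16.5. Rgs5, a pericyte gene, measured 4.54, 5.24 and 4.83 at E14.5 and 7.51, 7.99 and 7.63 at E16.5 and had the largest rise among the named genes, 2.84 ± 0.22 (adjusted p = 7.7e-07). The smooth muscle actin Acta2 rose by 1.51 ± 0.25 (adjusted p = 7.7e-04), the PDGF receptor Pdgfrb by 1.23 ± 0.13 (adjusted p = 1.5e-05), Anpep by 0.95 ± 0.17 (adjusted p = 0.0014), Kcnj8 by 0.85 ± 0.14 (adjusted p = 7.2e-04) and Notch3 as given above, while Cspg4 (0.16 ± 0.16, adjusted p = 0.58), Myh11 (0.29 ± 0.19, adjusted p = 0.35) and Tagln (0.17 ± 0.15, adjusted p = 0.51) did not pass. Of 13 fibroblast markers 5 rose and 0 fell, with a median of 0.54 and a list mean of 5.88 to 6.07 against 6.38 to 6.77. Postn (1.82 ± 0.20, adjusted p = 1.8e-05), Col6a3 (1.06 ± 0.18, adjusted p = 0.0013), Col3a1 (0.94 ± 0.14, adjusted p = 4.4e-04), Prrx1 (0.86 ± 0.18, adjusted p = 0.0062) and Col1a2 (0.54 ± 0.15, adjusted p = 0.027) rose, and Pdgfra, a defining marker, differed by -0.03 ± 0.13 (adjusted p = 0.9). Aspn, a matrix proteoglycan that is on neither list, rose by 2.13 ± 0.23 (adjusted p = 1.4e-05).

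Erythroid and platelet markers fell or did not pass. Of 10 measured erythroid genes 5 fell and 0 rose, with a median of -0.43 and a list mean of 5.63 to 5.87 against 4.88 to 5.10. Hbb-y, an embryonic beta-like globin, measured 10.05, 9.72 and 10.40 at E14.5 and 6.96, 7.02 and 6.96 at E16.5 and fell by 3.07 ± 0.27 (adjusted p = 1.6e-06), the largest fall in BEC, and Hba-x, an embryonic alpha-like globin, by 1.66 ± 0.17 (adjusted p = 1.2e-05). Both fell in LEC, by 4.03 and 1.42. Klf1 (-0.76 ± 0.20, adjusted p = 0.024), Ermap (-0.60 ± 0.17, adjusted p = 0.029) and Slc4a1 (-0.48 ± 0.13, adjusted p = 0.027) made up the rest, and Alas2 differed by 0.19 ± 0.20 (adjusted p = 0.57). The count was 3 without E14.5 replicate 1 or 2 of BEC and 2 without E14.5 replicate 3 or E16.5 replicate 2. Probes of near-identical globin genes may bind more than one of them. Of 7 measured platelet genes 4 fell and 0 rose, with a median of -0.57 and a list mean of 6.31 to 6.38 against 5.63 to 5.89: Ppbp (-0.90 ± 0.15, adjusted p = 9.0e-04), Itgb3 (-0.82 ± 0.10, adjusted p = 6.8e-05), Treml1 (-0.57 ± 0.14, adjusted p = 0.015) and Gp5 (-0.45 ± 0.14, adjusted p = 0.045). Without E14.5 replicate 2 or E16.5 replicate 2 of BEC 2 fell. Mmrn1 on the lymphatic list is also a platelet gene.

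The remaining lists of other cell types had few called members, where 5.1% of all genes rose and 4.66% fell. Of 18 macrophage markers 1 fell, the mannose receptor Mrc1, and 0 rose, with a median of -0.08. Mrc1, which lymphatic endothelium also carries, measured 7.21, 6.87 and 7.18 at E14.5 and 4.94, 5.79 and 5.34 at E16.5 and fell by 1.73 ± 0.23 (adjusted p = 1.4e-04). The defining markers Csf1r (-0.08 ± 0.30, adjusted p = 0.89) and C1qa (0.02 ± 0.29, adjusted p = 0.98) were near the dim level, with means of 5.09 and 4.89 at E14.5 and 5.01 and 4.90 at E16.5, and Adgre1 was below it at both ages. The list mean was 5.08 to 5.21 per array at E14.5 and 4.99 to 5.02 at E16.5, whereas in LEC it was 6.01 to 6.22 and 7.10 to 7.90. Of 13 lymphocyte and leukocyte genes Laptm5 (-0.67 ± 0.18, adjusted p = 0.028), Coro1a (-0.55 ± 0.15, adjusted p = 0.03) and Cd3e (-0.41 ± 0.12, adjusted p = 0.045) fell and 0 rose, with a median of -0.15, and 0 to 1 fell without any one BEC array other than E16.5 replicate 2 and 0 with a common median. Of 12 neutrophil and monocyte genes Lyz2 rose (0.93 ± 0.29, adjusted p = 0.048) and Mpo fell (-0.51 ± 0.13, adjusted p = 0.019), with a median of -0.17; Lyz2 kept its call only without E16.5 replicate 1 of BEC, and Mpo only without E14.5 replicate 3 or E16.5 replicate 1, when 1 array was left out. Of 11 mast cell genes Mcpt4 rose, 0 fell and the median was 0.22. Mcpt4 lost its call without E14.5 replicate 1 or 3 or E16.5 replicate 2 or 3 of BEC and after repeated quantile normalization, and the median of the list was 0.06 without E14.5 replicate 3 and 0.38 without E16.5 replicate 1. Of 14 keratinocyte genes Krt18 fell (-0.50 ± 0.11, adjusted p = 0.0088) and 0 rose, with a median of -0.22. Skeletal muscle genes fell in 2 of 11 (Tnnt3, -0.68 ± 0.15, adjusted p = 0.007, and Pax7, -0.41 ± 0.11, adjusted p = 0.023), with a median of -0.24, and cartilage genes in 2 of 6 (Col2a1, -0.52 ± 0.13, adjusted p = 0.018, and Col9a1, -0.45 ± 0.13, adjusted p = 0.039), with a median of -0.40. The muscle count was 0 without E16.5 replicate 2 and 1 without any other of E14.5 replicates 2 and 3 and E16.5 replicates 1 and 3, and the cartilage count was 0 without E14.5 replicate 2, E14.5 replicate 3 or E16.5 replicate 2 and 1 without E16.5 replicate 3. In the neuron and Schwann cell (10 genes, median -0.21), melanocyte (6 genes, median -0.11) and hepatocyte (7 genes, median -0.18) lists 0 rose and 0 fell.

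The change in BEC was then set against the change in LEC over the same days. In LEC 1608 genes rose and 1141 fell, with a median of -0.03 over all genes. The 2 changes differed for 524 genes (2.63%), 148 toward BEC and 376 toward LEC. This count was 839 without the E18.5 arrays and 1215 with array weights, and 310 to 326 when the left-out array was replicate 1 of BEC at E14.5, replicate 1 or 3 of LEC at E14.5, or replicate 1 of LEC at E16.5. On the lymphatic list 13 of 23 differed toward LEC and 0 toward BEC. The difference was -2.48 ± 0.22 (adjusted p = 4.0e-06) for Prox1, -2.15 ± 0.21 (adjusted p = 1.1e-05) for Reln and -2.08 ± 0.26 (adjusted p = 1.7e-04) for Sema3d. Toward BEC the largest differences were those of Rgs5 (2.22 ± 0.31, adjusted p = 4.9e-04), Galnt15 (2.16 ± 0.22, adjusted p = 1.6e-05), Aqp7 (2.00 ± 0.33, adjusted p = 0.0021), Ablim3 (1.93 ± 0.24, adjusted p = 1.4e-04), Mgll (1.90 ± 0.24, adjusted p = 1.7e-04) and Sele (1.88 ± 0.39, adjusted p = 0.012). Toward LEC they were Ms4a4a (-3.59 ± 0.42, adjusted p = 9.7e-05), Cd163 (-3.39 ± 0.40, adjusted p = 1.1e-04), Klrb1f (-3.35 ± 0.29, adjusted p = 4.0e-06), Pf4 (-3.30 ± 0.40, adjusted p = 1.2e-04), F13a1 (-3.28 ± 0.47, adjusted p = 5.2e-04) and Cp (-3.04 ± 0.26, adjusted p = 4.0e-06), of which Cd163 and F13a1 are on the macrophage list and Pf4 on the platelet list. In BEC none of these 6 passed the test, and Cd163 was at 4.17, 3.81 and 3.75 at E14.5 and 3.72, 3.77 and 3.81 at E16.5, below the dim level. Ms4a4a in LEC was at 5.17, 5.0 and 4.22 at E14.5 and 9.08, 8.02 and 8.91 at E16.5, a rise of 3.88 ± 0.30 (adjusted p = 8.7e-08).

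From E16.5 to E18.5, in a comparison that shares the E16.5 arrays, 3159 genes (15.8%) rose and 3274 (16.4%) fell in BEC, with a median of 0.09. The BEC arrays of E18.5 had an interquartile range of 3.18 to 3.33, against 3.54 to 3.64 at E16.5. They correlated with each other at 0.987 to 0.990. The part of this narrower spread in the later step was not tested. Prox1 differed by 0.01 ± 0.15 (adjusted p = 0.98) over these days after its fall of 1.94, and Pdpn by -0.04 ± 0.17 (adjusted p = 0.85) after 1.71. Reln fell further, by 0.63 ± 0.15 (adjusted p = 0.0037), and so did Mmrn1, by 1.38 ± 0.17 (adjusted p = 1.6e-05), and Flt4, by 0.84 ± 0.11 (adjusted p = 3.7e-05). Fabp4 differed by -0.01 ± 0.15 (adjusted p = 0.98) after its rise of 2.56, and Gja5 by -0.39 ± 0.24 (adjusted p = 0.21) after 1.27. Sele rose further, by 2.94 ± 0.28 (adjusted p = 1.0e-06), as did Rgs5, by 1.35 ± 0.22 (adjusted p = 2.3e-04), and Acta2, by 2.42 ± 0.25 (adjusted p = 1.9e-06). Gata2 fell by 0.90 ± 0.21 (adjusted p = 0.0034) in this later step.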

How the data were processed

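Total RNA of cells labelled as embryonic LEC and BEC was measured on 18 Affymetrix arrays in 6 groups of 3. The deposited values are log2 expression levels that the authors made with RMA; the submitters' processing notes name the package oligo, version 1.54.1. RMA subtracts background, quantile-normalizes and summarizes probes, which compresses changes of dim genes. Whether the arrays were normalized together and how rows were filtered is not given in the sources used here. No depth applies to arrays; their number limits the precision. Of 35556 rows, 21789 had 1 gene symbol, 1621 several and 12146 none here; the brightest row was kept for each of 19938 genes. Group means over all 18 arrays were fitted with limma 3.58.1 in R 4.3.3 (lmFit, eBayes), with Benjamini-Hochberg adjustment over all genes; the script was tested on simulated data. Named genes were the 12 largest rises and falls among called genes whose BEC arrays did not overlap, the 6 largest differences from LEC in each direction, and list members; others are said to have been chosen later. The members and lists were chosen with earlier results of these data known. Alternatives were the samples in the fit, array weights, scaling, trend, moderation, dim genes, row choice, blocks and leaving out each array. The labels call the replicates biological, from independent litters.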

Additional observations from a re-analysis of the deposited data

Results flagged for a closer look

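The change in BEC from E14.5 to E16.5 minus the change in LEC over the same days passed limma's test of the difference for the genes below (log2; a positive value is a change toward BEC). Among lymphatic identity genes it was -2.48 for Prox1, -2.15 for Reln, -2.08 for Sema3d, -2.01 for Mmrn1, -1.33 for Foxc2, -1.31 for Pdpn, -1.08 for Maf, -1.02 for Stab2, -0.91 for Thy1, -0.88 for Tbx1, -0.84 for Rassf9, -0.79 for Lyve1 and -0.77 for Flt4. Other genes higher in LEC at E18.5 or lower in BEC at E16.5 were at -1.84 for Scn3a, -1.83 for Prkcz, -1.78 for Pard6g, -1.73 for Sh3gl3, -1.35 for Pard3 and -0.60 for Stab1 and, of the largest falls, at -2.01 for Hapln1 and -1.71 for Ptx3.

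Macrophage markers gave -3.39 for Cd163, -3.28 for F13a1, -2.32 for Adgre1, -2.15 for Csf1r, -2.07 for Mrc1 and -2.04 for C1qa, platelet genes -3.30 for Pf4, -1.04 for Itgb3 and -0.98 for Ppbp, and the genes on no list -3.59 for Ms4a4a, -3.35 for Klrb1f and -3.04 for Cp. Mural and fibroblast genes gave 2.22 for Rgs5, 1.06 for Pdgfrb, 0.99 for Kcnj8, 0.92 for Notch3, -1.91 for Anpep and 0.98 for Prrx1, and the matrix gene Aspn, on neither list, gave 1.58.

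Genes of blood endothelium, capillaries, adhesion and transport gave 2.00 for Aqp7, 1.66 for Rbp7, 1.47 for Fabp5, 1.32 for Car4, 1.00 for Fabp4, 1.88 for Sele, 1.16 for Cxcl12, 1.27 for Sox17, 1.11 for Cd300lg, 0.67 for Gpihbp1, 0.98 for Slco1c1 and 0.96 for Ace. Arterial and signalling genes gave 1.03 for Fbln5, 0.93 for Vegfc, 0.64 for Tgfbr3, -2.27 for Gja4, -1.02 for Efnb2, -1.04 for Nos3, -1.25 for Ankrd1 and -1.07 for Ccn2, and others 2.16 for Galnt15, 1.93 for Ablim3, 1.90 for Mgll and 0.72 for Irf1. With 1 BEC or LEC array of these ages left out, 4 to 12 of the 64 differences listed in this section lost the call. The genes affected were Cd300lg, Fabp4, Fbln5, Gpihbp1, Irf1, Lyve1, Nos3, Ppbp, Prrx1, Rassf9, Slco1c1, Stab1 and Tgfbr3. Prrx1 lost its call whichever of these arrays was left out.

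Outside the named genes, 507 of 13767 rows without a single gene symbol passed the test between the ages of BEC, 241 higher and 266 lower at E16.5.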

How the results depend on the processing

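The count of genes called in BEC was 1945, and it was 3318 without the E18.5 arrays and 4022 with array weights. The count of rises (1016) was 1641, 1892 and, with a common median, 1607, and that of falls (929) was 1677, 2130 and 563. With one array left out, these counts ran from 850 to 1545, from 500 to 810 and from 350 to 735. Differences between the changes of BEC and LEC (524) came to 839 with only the compared groups or without the E18.5 arrays and to 1215 with array weights, and ran from 310 to 490 with one array left out. Toward BEC (148) they came to 286, 286 and 414, to 237 with a common median and to 235 with an intensity trend, and ran from 82 to 119. Toward LEC (376) they came to 801 with array weights and 250 without moderation of the variances, and ran from 228 to 376.

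Lymphatic identity members that rose ranged from 1 to 2 with one array left out. The median of that list was -0.47 with array weights, -0.36 with a common median and -0.47 after quantile normalization was repeated, and ranged from -0.52 to -0.39. The fatty acid uptake median ranged from 0.83 to 1.08. Of the genes higher in LEC at E18.5, 48 rose and 114 fell in BEC with a threshold of 1; with the alternatives chosen after seeing the data, 33 rose with array weights, 31 with a common median and 13 to 18 with one array left out. By replicate number 1 alone, the median share of the LEC level was 32.4% at E14.5 and 16.9% at E16.5. With a common median the median of the cell cycle (0.00) and oncofetal (0.03) lists was above 0, and after repeated quantile normalization the tip cell (-0.01), Notch (-0.02), macrophage (0.02) and melanocyte (0.01) medians changed sign. The venous median (0.02) was -0.02 with dim genes left out and -0.001 without BEC E16.5 replicate 2, and the oncofetal median was 0.004 without that array. The median over all genes (-0.05) was 0.02 with a common median. None of the 172 named genes called in BEC changed its direction under these alternatives.

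Of the 172 named genes called in BEC, 61 lost the call with 1 or more arrays left out: Acadl, Aldoa, Aurkb, Bmpr1a, Bmpr2, Cd3e, Cd93, Col1a2, Col2a1, Col9a1, Coro1a, Cyp51, Dhcr7, Dlk1, E2f1, Efnb2, Egr2, Elovl6, Eogt, Erg, Ermap, Etfdh, F11r, Fabp5, Gata3, Gfi1b, Gp5, Hadhb, Hey2, Igf1, Igf2r, Jam3, Klf1, Laptm5, Lyz2, Mcm2, Mcpt4, Meox2, Mpo, Mvd, Notch2, Nr2f1, Pax7, Pfkm, Pgam1, Pgf, Psmb8, Rassf9, Sema3g, Serpinb1a, Slc4a1, Slc6a4, Slc7a1, Sox17, Tap1, Tapbp, Tek, Tnnt3, Tpi1, Treml1 and Vcam1.

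Replicate numbers did not pair the ages: the deviations of same-numbered BEC arrays correlated at -0.06, -0.19 and -0.07. With the replicate number as a block 1659 genes were called, and 21 of the 172 named genes called in BEC lost the call. Repeating the quantile normalization left 864 rises and 719 falls, 54.6% rises, of which 782 and 538 were among those called on the deposited values. With 3 arrays in each group the number of arrays limits the precision, and genes near background have only a weak measure.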
